A study of Mus musculus with 5 samples.

Results

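The Schlafen genes measured here are Slfn1, Slfn2, Slfn3, Slfn4, Slfn5, Slfn8 and Slfn9, 7 of the 18193 genes that the arrays' annotation names, with 11 of 45037 probe sets. They were taken by name, as every probe set whose annotation gives exactly 1 symbol of that list, but the family was chosen by its measured values in the same contrast that is described here, log2(signal + 20) of 3 G9C8 clone arrays against 2 NOD.G9C8 transgenic arrays. The members' differences are therefore given as a description, with no test. Cells of both groups recognise 1 insulin B chain peptide. The G9C8 group is a CD8 T cell clone kept in culture, sampled as 3 separately frozen vials of that 1 clone, and the labels name no host strain for it. Whether the groups differ in strain, which can alter the signal of a probe, was not tested for any member. The NOD.G9C8 group is spleen cells of 2 transgenic mice aged 4 to 8 weeks on the NOD/LtJ background, carrying the G9C8 transgene, whose promoter the labels do not name either. All 5 cultures received the peptide at 10 µg/ml over 3 days and were then kept in IL2 at 5 IU/ml over 2 days, and no sort before RNA extraction is named.

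Schlafen proteins are a family of lymphoid and myeloid cells, and many of their genes are induced by type I interferon. The short members Slfn1 and Slfn2 are known for restraining growth in T cells, and loss of Slfn2 function is known to end the quiescence of resting T cells. Slfn3 and Slfn4 are of intermediate length, and Slfn5, Slfn8 and Slfn9 are long members that carry an additional helicase-like part; several Schlafen proteins bind or cleave transfer RNA.

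The genes lie side by side on chromosome 11. In the RefSeq table of assembly GRCm38.p6 the cluster runs from 82951349, the first base of Slfn5, to 83286726, the last base of Slfn14, over 335 kb. Slfn14 has no probe set named here. All 7 members had a promoter window in the RefSeq table, from 250 bases before to 50 bases after a transcription start, and Slfn8 had windows at 2 starts. The 3 windows printed here are those of Slfn8 and Slfn9, a neighbouring pair whose signals went in opposite directions, and of Slfn5, because these 3 genes held the core of the interferon-stimulated response element (ISRE). They are written 5′ to 3′ on the gene's own strand, and capitals mark the ISRE core. Their positions are chr11:83020761-83021060 on the minus strand for Slfn8, chr11:82991781-82992080 on the minus strand for Slfn9 and chr11:82951852-82952151 on the plus strand for Slfn5 (GRCm38.p6).
Slfn8: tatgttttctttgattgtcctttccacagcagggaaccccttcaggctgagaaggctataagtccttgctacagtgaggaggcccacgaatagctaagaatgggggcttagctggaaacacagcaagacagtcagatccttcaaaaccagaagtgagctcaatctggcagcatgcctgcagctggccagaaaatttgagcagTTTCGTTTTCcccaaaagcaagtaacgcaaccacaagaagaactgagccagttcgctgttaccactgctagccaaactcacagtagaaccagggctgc
Slfn9: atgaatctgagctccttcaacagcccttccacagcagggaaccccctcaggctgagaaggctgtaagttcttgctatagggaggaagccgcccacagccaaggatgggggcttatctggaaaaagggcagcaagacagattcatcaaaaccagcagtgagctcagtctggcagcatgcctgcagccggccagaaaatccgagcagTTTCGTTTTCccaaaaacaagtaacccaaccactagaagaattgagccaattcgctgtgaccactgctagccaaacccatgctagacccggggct
Slfn5: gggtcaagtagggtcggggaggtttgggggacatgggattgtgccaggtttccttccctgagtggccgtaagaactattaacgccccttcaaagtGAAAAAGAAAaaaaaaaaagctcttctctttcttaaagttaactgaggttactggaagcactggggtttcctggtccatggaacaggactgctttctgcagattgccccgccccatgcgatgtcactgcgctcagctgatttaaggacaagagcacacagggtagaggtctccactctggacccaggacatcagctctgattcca

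The ISRE core was searched on both strands as GAAA, any 2 bases, GAAA. It occurred in 3 of 7 members, against 3.99% of the 27025 genes of the promoter table. The Slfn8 and Slfn9 windows are largely alike, so their matches are not counted as separate, and no enrichment is read from these shares. Slfn8 and Slfn9 held it in the same letters, GAAAACGAAA on the opposite strand, beginning 48 and 45 bases before the start. In Slfn5 it began 155 bases before the start, and in the window of the other Slfn8 start 136 bases before. The Slfn5 window, from 82951852, lies downstream of the gene's first base, 82951349, so its match is inside the annotated gene. Over a global alignment the Slfn8 and Slfn9 windows were identical at 80.5% of 308 columns, while the other 20 pairs of members ranged from 41.9% to 49.4%. An AP-1 site, searched as TGA, any base, TCA, occurred in Slfn4 only among the 7 members, 34 bases before its start, against 8.97% of all genes. A GAS element, TTC, any 3 bases, GAA, is present in 9.55% of genes, and an NF-kB site, GGGA, any base, TTTCC, in 0.466%. Neither was found in a member's window. A match or its absence describes only the letters of these windows.

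**Figure D1:**
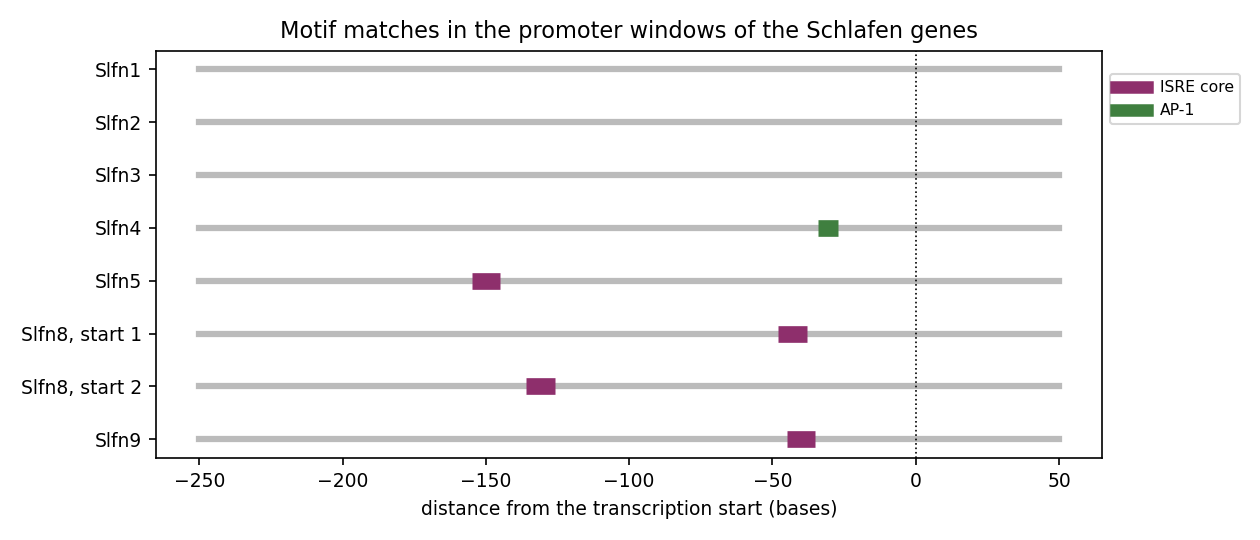
Motif matches in the promoter windows of the 7 Schlafen genes, with distance from the transcription start in bases on the horizontal axis and 1 line per window (2 for Slfn8). Purple blocks are ISRE cores and the green block is an AP-1 site; the Slfn8 and Slfn9 cores begin 48 and 45 bases before their starts.

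Signals are intensities on the scale of the arrays, and differences are clone minus transgenic on the log2(signal + 20) scale. The median signal over all probe sets was 132.3 to 133.0 on the clone arrays and 140.7 and 141.9 on the transgenic arrays, and precision is limited by having 5 arrays. Of the 12446 genes tested across the whole table, 22.0% were called higher and 21.7% lower in clone, 43.8% in all (limma, adjusted p under 0.05). The 2706 lower genes became 1697 when transgenic array 1 was left out. T cell markers were bright on all arrays, with a summed signal of 7 CD8 T cell markers of 59298 to 68287 in clone and 75870 to 84428 in transgenic cells. Among 15 myeloid markers 12 were lower on every clone array than on both transgenic arrays, and 2, Cd68 and Cst3, were higher. Summed signals were 12507 to 13804 against 19197 to 19868. Most of the clone sums came from Cst3 (5965, 6651 and 6137) and Ctss (3699, 3884 and 3795). The sums therefore do not show the size of the difference in other markers, such as Lyz2 (274, 327 and 237 against 3497 and 5549). The sums of 7 B cell markers were 1005 to 1291 against 1554 to 1710; only Cd79b (31.5, 2.70 and 46.0 against 655 and 594) and Blk were lower on every clone array, Ebf1 was higher and the other 4 overlapped. The sums of 4 natural killer markers, mostly the Gzma signal, which CD8 T cells also express, were 1706 to 1974 against 22577 to 24103. No marker was at 0 on all arrays. Whether other cells were added to or remained in either culture is not stated.

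Both short members were lower in clone by 3 to 4 times. Slfn1, probe set 1418612_at, gave signals of 1714, 2194 and 1349 in clone and of 5716 and 5639 in transgenic cells. Every clone array was well below both mice, which were close to each other. The means were 1752 ± 423 (SD, n = 3) against 5678 ± 54.1 (SD, n = 2), a difference of -1.71 or 3.24-fold lower in clone. Slfn2, probe set 1450165_at, gave 2830, 2460 and 1520 in clone and 8557 and 8173 in transgenic cells. The groups again did not overlap. Its means were 2270 ± 675 against 8365 ± 271, a difference of -1.92, or 3.69-fold lower in clone. In bulk RNA such as this, fewer cells of a type and less RNA per cell cannot be told apart, and the part of other spleen cells in the higher transgenic signals was not tested. A further Slfn1 probe set, 1447614_at, was dim, from 9.60 to 71.8, and its groups overlapped.

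Among the long members, Slfn8 and Slfn5 were lower in clone and Slfn9 was higher. Slfn8, probe set 1451655_at, gave 797, 701 and 530 in clone against 1782 and 1579 in transgenic cells, with no overlap. Means of 676 ± 135 and 1681 ± 144 give a difference of -1.31, or 2.49-fold. Slfn9, probe set 1436472_at, ran the other way, with 542, 422 and 604 in clone against 364 and 371. All clone arrays lay above both mice, but by less: 523 ± 92.3 against 367 ± 4.60, a difference of 0.47, 1.42-fold higher in clone. The other Slfn9 probe set, 1458803_at, gave 161, 171 and 149 against 176 and 99.7, which overlap (difference 0.23). Slfn8 and Slfn9 are close relatives, and whether their probe sets fully tell them apart was not tested; no member probe set ends in _x_at or _s_at, the endings that mark probes shared between transcripts or cross-hybridizing.

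Slfn5, a member whose human relative is known as an interferon-induced repressor of transcription, had 3 probe sets. On 1442640_at clone arrays read 54.3, 35.0 and 40.8 and transgenic arrays 154 and 209, a difference of -1.67 (43.4 ± 9.90 against 181 ± 38.5). That value depends on the pseudocount, being -2.05 with 1 and -1.30 with 50. On 1456288_at they read 13.5, 22.7 and 8.70 against 61.2 and 114, a difference of -1.59. These 2 probe sets separate the groups in the same direction, although both are dim in clone. On 1456288_at the transgenic signals are dim too, with a mean of 87.4. Its mean over all arrays, 43.9, did not pass the filter, so it is not read as separate support for the direction. The third, 1458458_at, read 61.2, 39.2 and 155 against 132 and 87.9 and did not separate them (difference -0.44), the third clone array being the highest of all 5.

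The intermediate members were dim and higher in clone. Slfn4, known from interferon-treated macrophages, gave 103, 218 and 137 in clone against 63.4 and 36.6 in transgenic cells on 1427102_at. The groups did not overlap, and the difference was 1.27, with a clone mean of 152 ± 59.1. Both transgenic signals lay under the filter level of 88.2, so no fold is given. Of the 15 myeloid markers 12 were lower and 2, Cd68 and Cst3, higher on every clone array, and their part in the Slfn4 signal was not tested. Slfn3, on 1421644_at, read 67.9, 77.7 and 99.0 against 52.4 and 52.1, a difference of 0.48 (81.5 ± 15.9 against 52.3 ± 0.212). A further probe set, 1450322_s_at, is annotated with both Slfn3 and Slfn4 and belongs to neither here; it gave 91.9, 115 and 95.5 against 52.7 and 51.0, also above without overlap. So did the pseudogene Slfn10-ps (1444350_at), with 175, 157 and 146 against 91.8 and 72.8, a difference of 0.81.

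**Figure D2:**
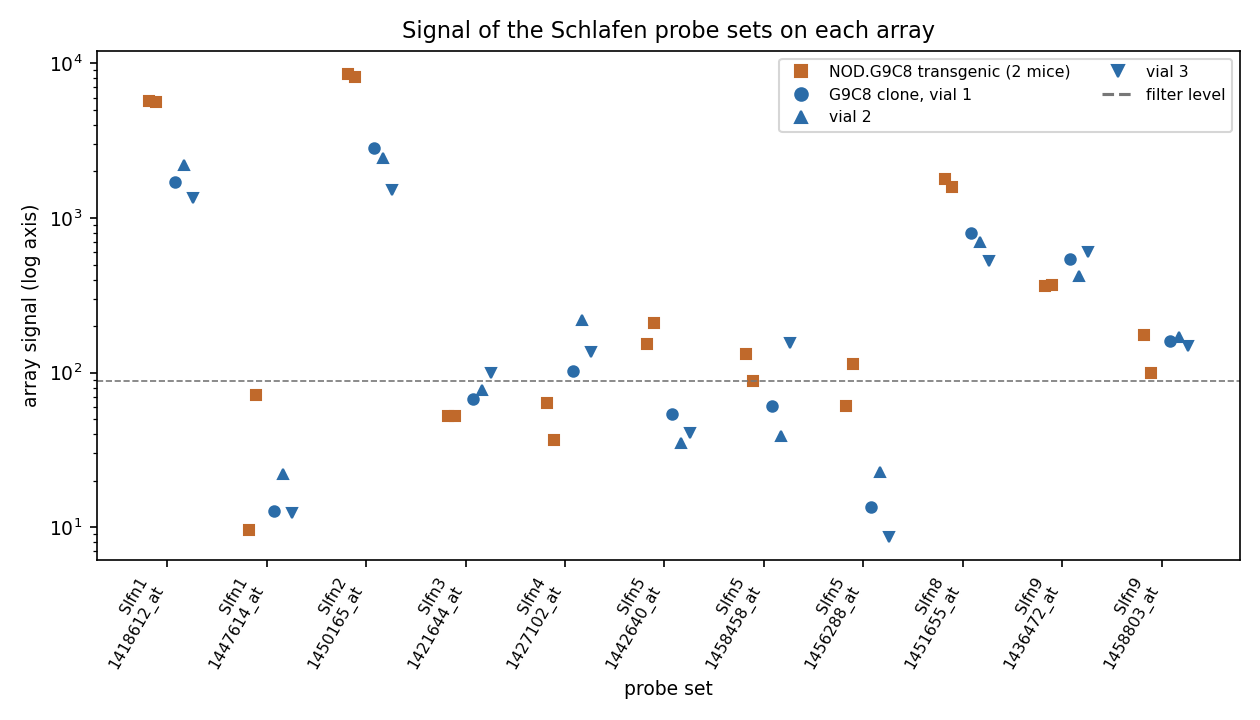
Signal of each of the 11 Schlafen probe sets on each array, on a log axis; orange squares are the 2 transgenic mice, blue symbols the 3 clone vials, and the dashed line is the filter level of 88.2. Slfn1 (1418612_at), Slfn2 and Slfn8 show both mice above all vials, and Slfn9 (1436472_at), Slfn4 and Slfn3 the reverse.

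Of the 11 member probe sets, 5 were lower on every clone array than on both transgenic arrays, 3 were higher and 3 overlapped. Over all 45037 probe sets, 26.7% were lower on every clone array and 24.6% higher, 51.3% without overlap in all. Since the family was chosen on this contrast, nothing is read from these counts. A filter at a mean signal of 88.2 was passed by 8 of the 11 probe sets, and by 6 of 7 genes, Slfn3 being the exception. Slfn4 passed it only through clone and Slfn5 only through transgenic cells. On the brightest probe set of each gene, 4 members were lower and 3 higher. Each kept its sign under all 10 alternatives of scaling, pseudocount, probe set choice and left-out array. The groups did not overlap on any of these brightest probe sets, so a pseudocount or a left-out array could not turn a sign. The kept signs are therefore no separate support for the directions.

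Directions were mixed along the chromosome. From the Slfn5 end the differences of the brightest probe sets were -1.67 for Slfn5, 0.47 for Slfn9, -1.31 for Slfn8, 0.81 for the pseudogene Slfn10-ps, -1.92 for Slfn2, -1.71 for Slfn1, 1.27 for Slfn4 and 0.48 for Slfn3. The pair Slfn2 and Slfn1, and the pair Slfn4 and Slfn3, are each neighbours of like direction. Outside the cluster, of the 10 nearest tested genes on each side, 2 were called higher, 7 lower and 11 not called, 45% called against 43.8% of all genes (median difference -0.22 against -0.01). The nearest on the Slfn14 side was Ap2b1, an adaptor subunit of clathrin-coated vesicles, at 0.37 (2080 ± 164 against 1600 ± 105; SE 0.11; adjusted p = 0.0207, limma), followed by Taf15 (-0.15, adjusted p = 0.412) and the chemokine gene Ccl5 (-0.30, 95% confidence interval -0.59 to -0.01, adjusted p = 0.0867). Ccl5 was called without the second clone array (-0.42, adjusted p = 0.00584) and Nle1 without the first (0.57, adjusted p = 0.0269). On the Slfn5 side stood Nle1 (0.40, adjusted p = 0.125), the DNA repair gene Rad51d (-0.94, adjusted p = 0.0106) and the ubiquitin ligase gene Rffl (-1.11, adjusted p = 0.00767). Ap2b1 lost its call without any one of 4 arrays (all except the second clone array; adjusted p up to 0.150) and Rffl without the second transgenic array (0.0667). Rad51d is not settled: without the first or the second transgenic array another of its probe sets became the brightest, with differences of 0.06 and 0.40. Further out, Ccl6 (-6.48), Wfdc17 (-3.82) and Ccl9 (-2.48) were lower and Heatr6 (1.09) was higher, named after their values were seen. The clone means of Ccl6 (14.3), Wfdc17 (11.8) and Ccl9 (39.9) lay under the filter of 88.2, which these genes passed only through transgenic cells. The part of myeloid cells in their signals was not tested. Without the second transgenic array 3 neighbours were called.

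**Figure D3:**
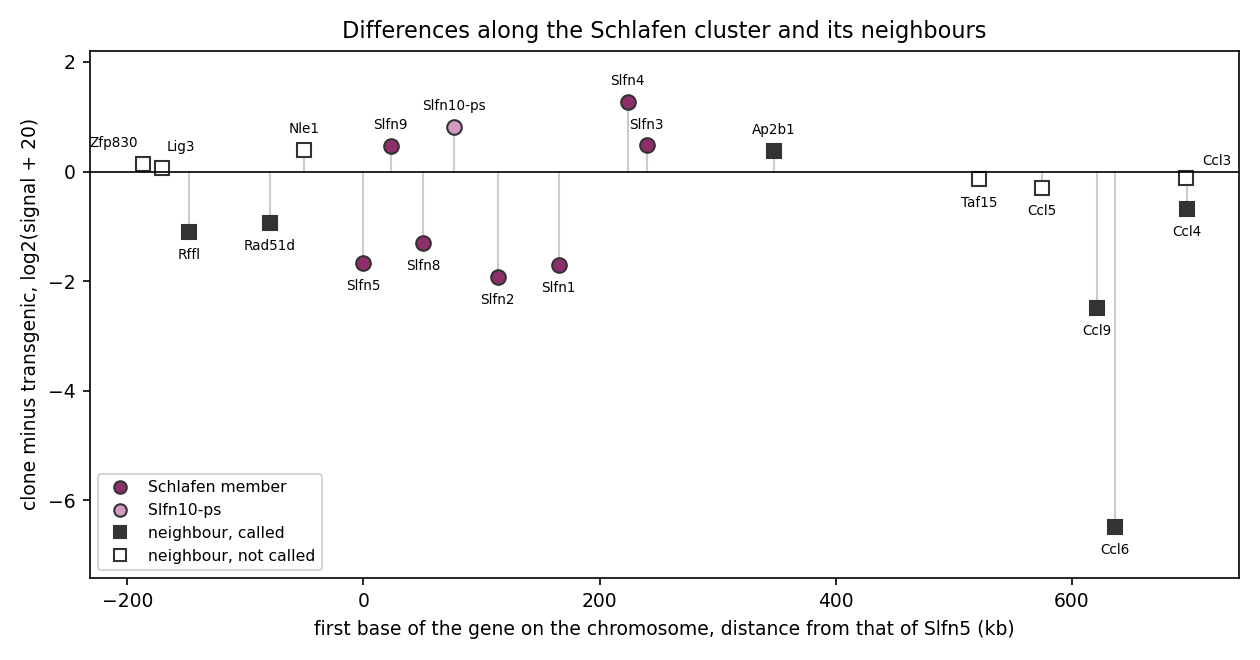
Difference between clone and transgenic cells (log2 scale) against distance along the chromosome in kb from Slfn5. Round symbols are Schlafen genes, from -1.92 for Slfn2 to 1.27 for Slfn4, and squares are neighbours, filled where called by limma; higher and lower genes are interleaved within the cluster.

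Within the clone group the third vial was the lowest for the 3 bright genes that were lower in clone. That vial is part of the clone mean in the contrast that chose the family, so nothing is read from its place. Its log2 value lay below the mean of the other 2 vials by -0.52 for Slfn1, -0.79 for Slfn2 and -0.48 for Slfn8. Over all genes tested the median of that quantity was 0.01, and 4.78% of genes were as low as Slfn8 or lower. The Slfn9 probe sets differed, the third vial being the highest on 1436472_at (0.32) and the lowest on 1458803_at (-0.14). The third vial was lowest in 6 of the 11 member probe sets, against 33.1% of all probe sets. Some of these probe sets share a gene or are dim, and nothing is read from the count. The 2 mice were close on the brightest probe sets of these genes, with the second minus the first at -0.02 for Slfn1, -0.07 for Slfn2, -0.17 for Slfn8 and 0.02 for Slfn9 (1436472_at). Slfn3 was at -0.006. The mice lay farther apart on the dimmer Slfn1 (1447614_at, 1.63) and Slfn9 (1458803_at, -0.71) probe sets and for Slfn4 (-0.56). For Slfn5 the values were 0.39 on 1442640_at, 0.72 on 1456288_at and -0.50 on 1458458_at.

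Profiles over the 5 arrays, centred on their mean, were compared by their root mean square distance on the log2 scale. The 6 pairs among Slfn1, Slfn2, Slfn5 and Slfn8 lay 0.23 to 0.33 apart, the closest being Slfn1 and Slfn2. From these 4 to Slfn9 or Slfn4, both higher in clone, the distance was 0.92 to 1.63. Slfn4 and Slfn9 lay 0.62 apart. Outside the family the nearest profiles to Slfn1 were those of Gm15471 (0.09), Tmem71 (0.09) and Ms4a7 (0.11), and to Slfn2 those of Trav12n-1 (0.09), Tmem108 (0.11) and Zfp354c (0.11). Slfn8 lay nearest to Fbxo32 (0.03), Oxr1 (0.05) and Parp11 (0.07), and Slfn9 to Mtfr2 (0.04), Gle1 (0.04) and Wars (0.04). Slfn5 lay nearest to Ada (0.06), Cd2 (0.08) and Slc6a19 (0.09), and Slfn4 to A330023F24Rik (0.13), Rab20 (0.14) and D3Ertd751e (0.18). These distances include the group difference, which was not removed. Members of opposite direction therefore lie apart by construction, and nothing is read from the grouping.

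Genes of the interferon pathway, through which Schlafen genes are known to be induced, were more often lower than higher in clone. Of 25 listed genes 23 were tested, with 3 higher, 14 lower and 6 not called (73.9% called against 43.8% of all genes), and a median difference of -0.78 against -0.01. Of the receptor chains, Ifnar2 was higher (4998 ± 1356 against 2483 ± 367; 0.98, SE 0.20, adjusted p = 0.00425), and Ifnar1 differed by 0.04 (95% confidence interval -0.34 to 0.42; adjusted p = 0.865). The kinase gene Jak1 was lower (3644 ± 439 against 12192 ± 36.8; -1.74, SE 0.11, adjusted p = 7.39e-06), as were Stat2 (-0.79) and Irf9 (-0.78), which encode parts of the factor that binds the ISRE; these 5 were named after their values were seen. By size the list was led by Usp18 (-2.90), Irf1 (1786 ± 73.3 against 8663 ± 1792; -2.25, SE 0.13, adjusted p = 5.00e-06), Ifit1 (-1.83) and Ifih1 (-1.81). The higher genes besides Ifnar2 were the antiviral genes Mx1 (1.36) and Oas1a (0.39), and Oas1a lost its call without any one of 4 arrays (all except the first transgenic array; 0.19 with an adjusted p of 0.351 without the second transgenic array). Without the first it was 0.58. Slfn8 and Slfn9, whose windows hold the same ISRE core, are described above with opposite signs. Myeloid markers were also lower in clone, and their part in the counts of this list was not tested.

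In the list of 16 quiescence genes, 8 fell in clone, 2 rose and 6 were not called, with a median of -0.32 and 62.5% called, against -0.01 and 43.8% over all genes. Klf2, a transcription factor that holds T cells in a resting state, gave 649 ± 29.8 against 5678 ± 452 (-3.09, SE 0.10, adjusted p = 3.08e-07). The IL7 receptor gene Il7r (-1.49), the checkpoint gene Vsir (-1.42) and the antiproliferative gene Btg2 (1942 ± 331 against 4627 ± 211; -1.26, adjusted p = 0.000148) were also lower, and so was Foxp1 (-1.09), named after its value was seen. The higher genes were Klf4 (180 ± 39.7 against 87.7 ± 23.6, difference 0.89, adjusted p = 0.0271) and Foxj1 (128 ± 6.77 against 61.8 ± 25.7, difference 0.90, adjusted p = 0.0329). Their transgenic means lay under the filter of 88.2. Klf4 and Foxj1 passed it only through clone, so no rise is read from their calls. Both lost their calls without the first transgenic array (adjusted p = 0.175 and 0.214, with Foxj1 at 0.57), and without the second or the third clone array, Foxj1 also without the first clone array.

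Among cyclins and cyclin-dependent kinases 8 of 17 tested genes were higher, 2 lower and 7 not called. The median was 0.22 against -0.01 over all genes, and 58.8% were called against 43.8%. Cyclin D1, whose gene Slfn1 is known to restrain, was not among the called genes: Ccnd1 gave 329 ± 74.9 against 298 ± 49.9 and differed by 0.12 (-0.36 to 0.60 at 95% confidence; adjusted p = 0.678). Ccnd2 (0.22, adjusted p = 0.0744) and Ccnd3 (0.01, adjusted p = 0.919) were not called either, but the mean over the Ccnd3 probe sets was lower (-0.75, adjusted p = 0.00196). These D-type cyclin genes and Cdk4 were named after their values were seen. The partner kinase genes Cdk6 (4468 ± 634 against 1523 ± 324; 1.55, SE 0.16, adjusted p = 0.000105) and Cdk4 (0.77) were higher, together with their inhibitor gene Cdkn2c (1.36), Ccnb2 (1.10) and E2f1 (0.80). The lower genes were Cdk2 (-0.42) and Cdkn2d (-0.37). Without the first transgenic array 5 genes of the list were called and E2f1, Cdk2 and Cdkn2d were not (adjusted p = 0.219, 0.122 and 0.108, with E2f1 at 0.47); E2f1 also lost its call without the first or the third clone array, and Cdk2 without the second transgenic array (0.126).

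Genes listed under transfer RNA cleavage and modification went both ways. Of 17 tested, 5 were higher, 4 lower and 8 not called, with a median of 0.24. The share called, 52.9%, was near the 43.8% of all genes. Ang, which encodes the ribonuclease angiogenin, was under the filter. Its inhibitor gene Rnh1 was lower (1297 ± 184 against 2076 ± 128; -0.68, SE 0.13, adjusted p = 0.00321). The splicing endonuclease subunit gene Tsen15 (-1.03, adjusted p = 0.00626), the RNA kinase gene Clp1 (-0.68) and Fcf1 (-0.45) were also lower. Whether Fcf1 acts on transfer RNA was not checked. The pseudouridine synthase gene Pus1 was higher (0.66, adjusted p = 0.00206), as were the transfer RNA methyltransferase genes Trdmt1 (0.48) and Nsun2 (0.29), Trnt1 (0.44) and Angel2 (0.39). Without the first or without the second transgenic array 4 genes were called. Tsen15 then lost its call in the second case (adjusted p = 0.0671), Trnt1 in the first (0.117) and Fcf1 and Trdmt1 in both (up to 0.0652 and 0.0955). Nsun2 lost its call without any one of 4 arrays (up to 0.200) and Angel2 without any one of all 5 (up to 0.996), in 3 of them with another of its probe sets the brightest.

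**Figure D4:**
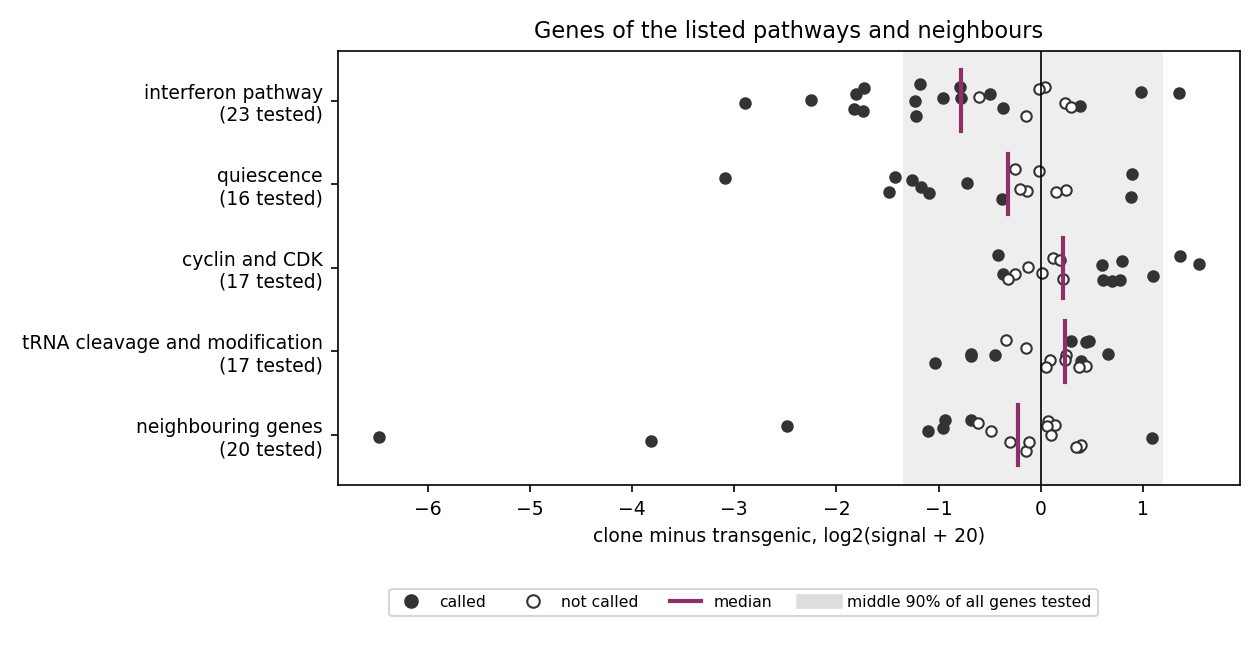
Difference between clone and transgenic cells (log2 scale) for each tested gene of 4 pathway lists and of the cluster's neighbours; filled points are called by limma, purple bars are medians and the grey band is the middle 90% of all genes tested. The interferon list has its median at -0.78 and the cyclin list at 0.22.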

How the data were processed

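Total RNA was measured on 5 one-colour Affymetrix arrays, from 8 µg per sample. The deposited values are linear signal intensity, 1 per probe set, made with GCOS per the submitters' processing notes, and their 2% trimmed mean is 500 on each array; no normalization was added here, and detection calls are absent from the table. Members and gene lists were chosen with earlier results of these data known. Probe sets with 1 annotated symbol name a gene (34945; 932 have several and 9160 none, and 64 are controls). For the fit, probe sets with a mean signal of at least 88.2 (40th percentile) were kept, and the brightest was taken for each gene. Groups were compared on log2(signal + 20), which understates differences of dim genes, with limma 3.58.1 in R 4.3.3 (lmFit, eBayes with trend, two-sided, Benjamini-Hochberg over 12446 genes, called at an adjusted p under 0.05). On simulated data with 200 changed genes, far fewer than are called here, it recovered 16.4% of 1.5-fold, 49.7% of 2-fold and 85.8% of 4-fold changes. A gene not called may therefore still differ. The error behind each p-value is that among 3 vials of a single clone and a pair of mice, which may be technical. Named genes are all members, up to 4 called genes of each list by size, the 3 nearest neighbours per side and the 3 nearest profiles; others are said to be named after their values were seen, or complete a count of 5 or fewer. Motifs were read in promoter windows of RefSeq GRCm38.p6 and aligned with Biopython 1.88. Protein comparisons were not run.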

Additional observations from a re-analysis of the deposited data

How the results depend on the processing

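Alternatives were quantile normalization, pseudocounts of 1 and 50, no filter or one at the 60th percentile, averaging a gene's probe sets, dropping those ending in _x_at or _s_at, eBayes without trend or robust, a replicate block, and omitting 1 array at a time. The members' differences were given under 10 of these, not under the filters, the eBayes settings or the replicate block, and kept their sign. Dropping probe sets ending in _x_at or _s_at changed nothing, since no member probe set has such an ending. Averaging changed only Slfn1, Slfn5 and Slfn9, which have several probe sets. On the brightest probe sets, where the groups did not overlap, a pseudocount or an omitted array could not turn a sign. Slfn1 was -1.13 with the mean over probe sets, and Slfn5 was -1.23 with that mean, -2.05 with a pseudocount of 1 and -1.30 with 50. With 1 array left out Slfn1 ranged from -1.89 to -1.54, Slfn2 from -2.10 to -1.66, Slfn5 from -1.86 to -1.47, Slfn8 from -1.43 to -1.15, Slfn9 from 0.36 to 0.61, Slfn4 from 0.99 to 1.55 and Slfn3 from 0.36 to 0.58. Genes called numbered 1938 to 2720 higher and 1697 to 2795 lower with 1 array left out, 15 to 17 in the interferon list, 7 to 9 in quiescence, 5 to 10 in the cyclin list, 4 to 8 in the transfer RNA list and 3 to 11 among neighbours. Without the trend 6 cyclin genes were called, and with the filter at the 60th percentile 5 neighbours; the cause was not tested. Of 696 values for 47 named genes under these alternatives, 632 kept their call, and their direction where called. Sign changes of genes called in neither fit are within the 632. Examples are Ifnar1 (-0.11 without the second clone array), Taf15 (0.23 with the mean over probe sets) and Ccnd1 (down to -0.048 with 1 array omitted). Calls were gained by Ccl5 with quantile normalization (adjusted p = 0.0209) and without the second clone array (0.00584), and by Nle1 without the first clone array (0.0269). Among genes called in either fit, signs turned for Ccnd3 with the mean over probe sets (-0.75) and Trnt1 without the shared probe sets (-0.23). They also turned for Rad51d without a transgenic array (0.06 and 0.40) and Angel2 without the first or second clone array (-0.00092 and -0.040). With 1 array omitted Rad51d ranged from -1.06 to 0.40 and Angel2 from -0.040 to 0.43. Vials and mice share only a number: deviations of the pairs correlated at -0.03 and -0.08. With the replicate block 2282 genes were higher and 2351 lower, and the calls of E2f1 (0.0606), Ap2b1 (0.0819), Oas1a (0.0669), Klf4 (0.0509), Foxj1 (0.0550), Fcf1 (0.05004), Trdmt1 (0.0623) and Nsun2 (0.142) ended (adjusted p, limma).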
